A study of Mus musculus with 12 samples.

Results

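Interferon-stimulated genes are the genes that cells switch on when interferons, or sensors of foreign nucleic acid, are engaged. A set of 49 such genes was followed here in mouse colonoids, epithelial cultures grown from colonic crypts. It comprised RNA sensors, antiviral effectors, ubiquitin-like modifiers, interferon regulatory factors, PARP-family enzymes, interferon-inducible GTPases and the 3 chemokines that bind the receptor CXCR3. The members were taken by name from a list drawn up with earlier results of these data known, and all 49 were among the 35869 gene symbols of the count table. Colonoids of C57BL/6 origin were kept in Matrigel with EGF and L-WRN conditioned medium, which supplies Wnt3a, R-spondin and noggin, in all groups. They then received 1 of 4 treatments for 12 h: nothing (unstimulated), recombinant mouse IL-22 at 1 ng/mL, recombinant mouse IL-1b at 100 ng/mL, or both cytokines at those doses. Polyadenylated RNA of 3 libraries per group was sequenced, and the libraries held 4703902 to 5804033 counts each. The labels do not say whether the libraries of a group came from separate mice or cultures, so each p-value measures only the spread between these libraries, which may be technical.

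Type I and type III interferons act on target promoters through a complex with IRF9 that binds the interferon-stimulated response element (ISRE), whereas interferon gamma acts largely through the gamma-activated site (GAS). IL-22 acts on epithelial cells and signals mainly through STAT3, and IL-1b signals through MyD88 to NF-kappa B. CXCL9, CXCL10 and CXCL11 attract T cells and natural killer cells that carry CXCR3, and all are induced by interferon gamma in many cell types. Guanylate-binding proteins and immunity-related GTPases act on the membranes of vacuoles that hold intracellular pathogens.

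The promoters of members that differed between treatments are shown first, because the response elements named above can be read in their letters. They are the RefSeq windows of build GRCm38.p6 that run from 250 bases before to 50 bases after a transcription start. Letters were searched on both strands for the ISRE core GAAANNGAAA (TTTCNNTTTC on the other strand), for the GAS core TTCNNNGAA, which reads the same on both strands, and for a kappa B core GGGNNNNNCC (GGNNNNNCCC on the other strand). Capitals mark every match, and matches of different motifs can overlap. Cxcl10, which fell with IL-22, lies on the minus strand at chr5:92348840-92349139. Igtp, an immunity-related GTPase that fell with both cytokines, lies on the plus strand at chr11:58199306-58199605, and its relative and neighbour Irgm2 on the plus strand at chr11:58214727-58215026. Ifit3, which binds viral RNA as part of the IFIT complex, lies on the plus strand at chr19:34583279-34583578. Dtx3l, a ubiquitin ligase that rose with IL-22, lies on the minus strand at chr16:35938978-35939277.
Cxcl10: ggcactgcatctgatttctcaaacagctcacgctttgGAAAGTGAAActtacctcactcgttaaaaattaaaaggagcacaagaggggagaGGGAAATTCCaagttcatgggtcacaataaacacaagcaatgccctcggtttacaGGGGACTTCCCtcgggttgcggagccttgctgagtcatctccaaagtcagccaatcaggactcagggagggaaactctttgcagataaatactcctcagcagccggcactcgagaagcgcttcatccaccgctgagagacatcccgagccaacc
Igtp: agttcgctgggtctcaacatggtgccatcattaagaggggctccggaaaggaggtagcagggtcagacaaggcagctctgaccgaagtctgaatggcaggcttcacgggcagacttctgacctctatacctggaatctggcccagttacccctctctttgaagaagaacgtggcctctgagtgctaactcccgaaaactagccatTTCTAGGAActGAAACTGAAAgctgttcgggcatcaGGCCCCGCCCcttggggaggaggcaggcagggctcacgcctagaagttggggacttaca
Irgm2: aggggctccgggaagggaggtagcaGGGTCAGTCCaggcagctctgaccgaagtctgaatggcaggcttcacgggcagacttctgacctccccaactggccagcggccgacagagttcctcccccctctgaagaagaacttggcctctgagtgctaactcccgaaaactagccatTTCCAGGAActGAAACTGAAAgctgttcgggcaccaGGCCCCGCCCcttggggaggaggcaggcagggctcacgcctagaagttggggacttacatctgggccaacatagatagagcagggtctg
Ifit3: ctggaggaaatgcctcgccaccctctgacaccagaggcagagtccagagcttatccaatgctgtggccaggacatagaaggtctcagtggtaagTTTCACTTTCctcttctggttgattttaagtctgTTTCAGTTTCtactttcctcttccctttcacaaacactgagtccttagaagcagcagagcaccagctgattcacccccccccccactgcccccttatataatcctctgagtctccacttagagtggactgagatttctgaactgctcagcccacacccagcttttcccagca
Dtx3l: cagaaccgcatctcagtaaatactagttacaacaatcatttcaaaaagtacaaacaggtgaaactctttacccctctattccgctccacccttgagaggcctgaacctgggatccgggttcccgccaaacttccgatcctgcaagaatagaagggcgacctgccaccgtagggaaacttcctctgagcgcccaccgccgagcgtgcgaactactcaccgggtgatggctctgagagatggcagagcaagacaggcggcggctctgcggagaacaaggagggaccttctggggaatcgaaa

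The Cxcl10 window held 1 ISRE match followed by kappa B matches, and the Igtp and Irgm2 windows each held a GAS match directly followed by an ISRE match. The Ifit3 window held 2 ISRE matches, and none of the 3 motifs was matched in the Dtx3l window. RefSeq windows were found for 38 of the 49 members. An ISRE match was present for 20 of the 38 members (52.6%) and for 3.99% of the 27025 genes in the table. A GAS match was present for 11 of the 38 members (28.9%) and for 9.55% of all genes in the table. A kappa B match was present for 25 of the 38 members (65.8%) and for 53.5% of all genes in the table. These are matches of letters only.

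In GENCODE M21 the 49 members lay on 14 chromosomes. The CXCR3 ligands formed a cluster on chromosome 5, and Parp9 and Dtx3l lay head to head on chromosome 16. Exon bases were shared with another gene model by 22 members. Parp9 and Dtx3l shared 458 bases on opposite strands, Cxcl11 shared 1582 with an antisense gene model, Cxcl10 shared 133 with the antisense gene Art3, and Igtp and Irgm2 shared 162 on the same strand. The strand setting of the counting is not given in the sources used here. Reads from bases shared on opposite strands may therefore have been counted for either gene. No strand setting would separate reads from bases shared on the same strand. The other exon bases of these genes are not affected by this sharing. Tgtp1 and Tgtp2, and Ifit3 and Ifit3b, are near-identical copies, and the split of their reads is uncertain.

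The cultures were epithelial by their markers. All 10 epithelial markers were detected in every group, with a summed level of 2690 to 3437 CPM (counts scaled by library totals after TMM adjustment) per library. IL-1b replicate 1 stood apart. The summed level of 22 leukocyte markers was 128.6 CPM in that library, against 35.9 and 30.8 CPM in the other two IL-1b libraries, 13.7 to 16.6 CPM in unstimulated, 16.4 to 38.1 CPM in IL-22 and 21.6 to 33.0 CPM in IL-1b+IL-22 libraries. Ptprc (CD45), carried by leukocytes in general, had 104, 20 and 12 counts in the IL-1b libraries and 0, 2 and 2 in the unstimulated ones, while Tyrobp was at 0 in all 12. Of the 22 markers, 14, 12 and 14 exceeded their highest unstimulated count in the 3 IL-1b libraries. The numbers were 7, 9 and 2 in the IL-22 libraries and 3, 12 and 8 with both cytokines. Leaving out replicate 1 therefore does not remove these transcripts from the group. Main counts of member calls that use the IL-1b group, and the values of named genes that moved most, are given with and without replicate 1. Counts by other processing, such as no filter on low counts, and counts for lists of other genes are not given without that library. The summed fibroblast and muscle markers (9 genes) ranged from 32.1 to 46.0 CPM in unstimulated, 18.8 to 27.9 in IL-22, 38.4 to 45.2 in IL-1b and 13.3 to 15.1 in IL-1b+IL-22 libraries. The 4 endothelial markers summed to 4.74 to 7.13, 1.11 to 1.65, 5.27 to 8.32 and 0.858 to 4.31 CPM in the same order. Nearly all of these counts were Pdgfrb and Pecam1: the defining fibroblast gene Dcn had a single count in the 12 libraries and the defining endothelial gene Cdh5 also had 1. In bulk RNA such as this, fewer cells of a type and less RNA per cell cannot be told apart.

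Baseline levels of the members spanned a wide range. Per kilobase of exon, the highest mean level in unstimulated colonoids was that of Samd9l, an antiviral restriction factor, at 54.0 CPM per kb. Oas1a, which makes the oligoadenylates that activate RNase L, followed at 40.8 CPM per kb, then Trim25 at 38.1, Oasl1 at 31.9, the transcription factor gene Irf1 at 31.8 and Parp12 at 30.7. At the other end, Gbp6 stood at 0.122 CPM per kb, and Iigp1 had no count in any unstimulated library. A filter on low counts (about 10 counts at the median library total, which is 1.90 CPM) left 42 members for testing among 13987 genes. Of these, 34 were above it in all 12 libraries. Gbp6 passed it through the IL-1b libraries alone, so for this gene a higher level with IL-1b was built into the filter, against unstimulated and against both cytokines alike. Cxcl9 and Cxcl11 were above it in no library with IL-22, so for them a lower level with IL-22 was in part built in. Usp18 was above it in 2 IL-1b libraries and 1 IL-22 library only. For this gene a lower level with both cytokines than with IL-1b was therefore in part built in. The values of these genes with no such filter are given beside their results. The 7 members that did not pass were Mx2, Oas2, Gbp3, Iigp1, Tgtp1, Tgtp2 and Ifi44. Counts and medians over the 42 describe the members that could be tested, not all 49.

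**Figure D1:**
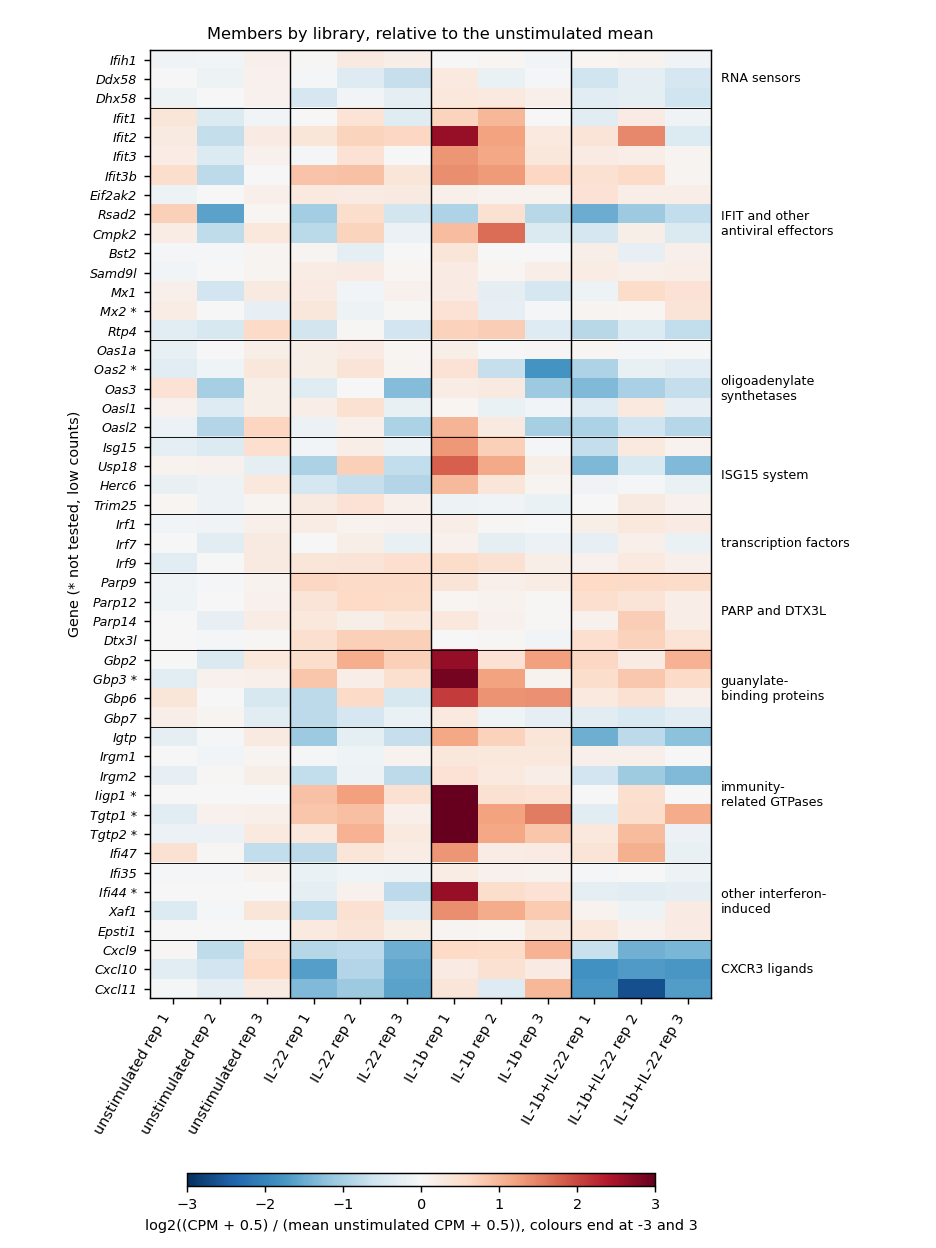
Level of each of the 49 members (rows, grouped by role) in each of the 12 libraries (columns), as log2 of CPM + 0.5 over the mean unstimulated CPM + 0.5, with colours that end at -3 and 3 and an asterisk on members that were not tested. The CXCR3 ligands were below their unstimulated mean in all 6 libraries with IL-22, Parp9, Dtx3l and Parp12 were above theirs in those 6, and IL-1b replicate 1 was the highest of its group for 29 of the 42 tested members.

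IL-22 alone moved members in opposite directions. The CXCR3 ligands Cxcl10 and Cxcl11 fell, while the PARP9, DTX3L and PARP12 group rose, together with Irf9, Trim25, Epsti1 and Eif2ak2. By edgeR's quasi-likelihood test with Benjamini-Hochberg adjustment, 9 of 42 tested members passed an adjusted p of 0.05 against unstimulated colonoids, 7 higher and 2 lower. That share was 21.4%, against 22.5% of all genes tested in this comparison (11.9% higher and 10.6% lower). The median log2 fold change was -0.01 over the tested members and -0.00 over all genes. The members as a set therefore differed about as often as genes in general, in both directions.

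Cxcl10 was at 10.2, 8.37 and 19.5 CPM in the unstimulated libraries and at 3.72, 6.65 and 3.96 CPM in the IL-22 libraries. The ranges did not overlap, although unstimulated replicate 3 was far above its group. The log2 fold change was -1.41 ± 0.31 (SE, n = 3 libraries per group, edgeR adjusted p = 0.0045). Cxcl11 was at 3.74, 3.09 and 4.74 CPM unstimulated and at 1.24, 1.55 and 0.943 CPM with IL-22. The groups were again separate, with a log2 fold change of -1.63 ± 0.45 (edgeR adjusted p = 0.0193). The call for Cxcl11 ended on leaving out unstimulated replicate 3, IL-22 replicate 1 or IL-22 replicate 3, at adjusted p = 0.052 to 0.0622. Cxcl9 was at 1.96, 0.909 and 2.84 CPM unstimulated and at 0.826, 0.886 and 0.377 CPM with IL-22. Its libraries did not overlap, but with so few counts its log2 fold change of -1.44 ± 0.52 missed the threshold (edgeR adjusted p = 0.060). With no filter beyond 1 count, Cxcl11 had a log2 fold change of -1.61 (edgeR adjusted p = 0.00285) and Cxcl9 -1.43 (0.0607). Pdgfrb and Pecam1 were lower in the same libraries, as given above, and their part in the chemokine result was not tested.

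PARP9 and DTX3L form a complex that joins ADP-ribosylation to ubiquitination, and PARP12 is a mono-ADP-ribosyltransferase with antiviral activity. Parp9 rose from 109, 115 and 126 CPM to 181, 175 and 173 CPM, Dtx3l from 84.5, 80.9 and 86.7 to 118, 138 and 139, and Parp12 from 112, 121 and 134 to 161, 187 and 180. In each case every IL-22 library was above every unstimulated one. The log2 fold changes were 0.60 ± 0.07 for Parp9, 0.65 ± 0.08 for Dtx3l and 0.52 ± 0.08 for Parp12, and leaving out any 1 library ended none of these calls. Parp14, the fourth member of this role, was at 75.4 ± 12.5 CPM unstimulated and 91.1 ± 5.01 CPM with IL-22 (SD, n = 3) and was not called.

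Irf9, the DNA-binding subunit of the complex that reads the ISRE, was at 31.5, 40.0 and 47.8 CPM unstimulated and at 51.2, 51.8 and 56.2 CPM with IL-22. Its log2 fold change was 0.42 ± 0.13 (edgeR adjusted p = 0.036), and leaving out any IL-22 library, unstimulated replicate 1 or unstimulated replicate 2 ended the call (adjusted p = 0.0547 to 0.131). The other two factors were not called, Irf1 at a log2 fold change of 0.15 and Irf7 at -0.01. Trim25, a ubiquitin ligase that activates the RNA sensor RIG-I, rose by 0.29 ± 0.08 on the log2 scale, and Eif2ak2, the RNA-activated kinase PKR, by 0.27 ± 0.08. Epsti1 rose by 0.29 ± 0.09. These 3 small changes rested on few libraries. Trim25 lost its call without unstimulated replicate 2 or IL-22 replicate 2 (adjusted p = 0.103 and 0.107). Eif2ak2 lost it on leaving out IL-22 replicate 1, unstimulated replicate 1 or unstimulated replicate 2 (0.051 to 0.0875). Epsti1 lost it without any unstimulated library or without IL-22 replicate 1 or 2 (0.0623 to 0.107). The scaling mattered too. With total counts as the only scaling, Eif2ak2 (edgeR adjusted p = 0.0621), Epsti1 (0.079) and Irf9 (0.0591) were not called. With a trend on count per exon base removed, Trim25 (0.0675) and Epsti1 (0.0669) were not called. None of the tested RNA sensors, oligoadenylate synthetases, guanylate-binding proteins or immunity-related GTPases was called with IL-22 alone by edgeR, and DESeq2 called 0 of those 14 members. At an unadjusted p under 0.05 there were 3 by edgeR and 3 by DESeq2, beside 34.7% of all genes by edgeR. These roles were joined after it was seen that none held a call.

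**Figure D2:**
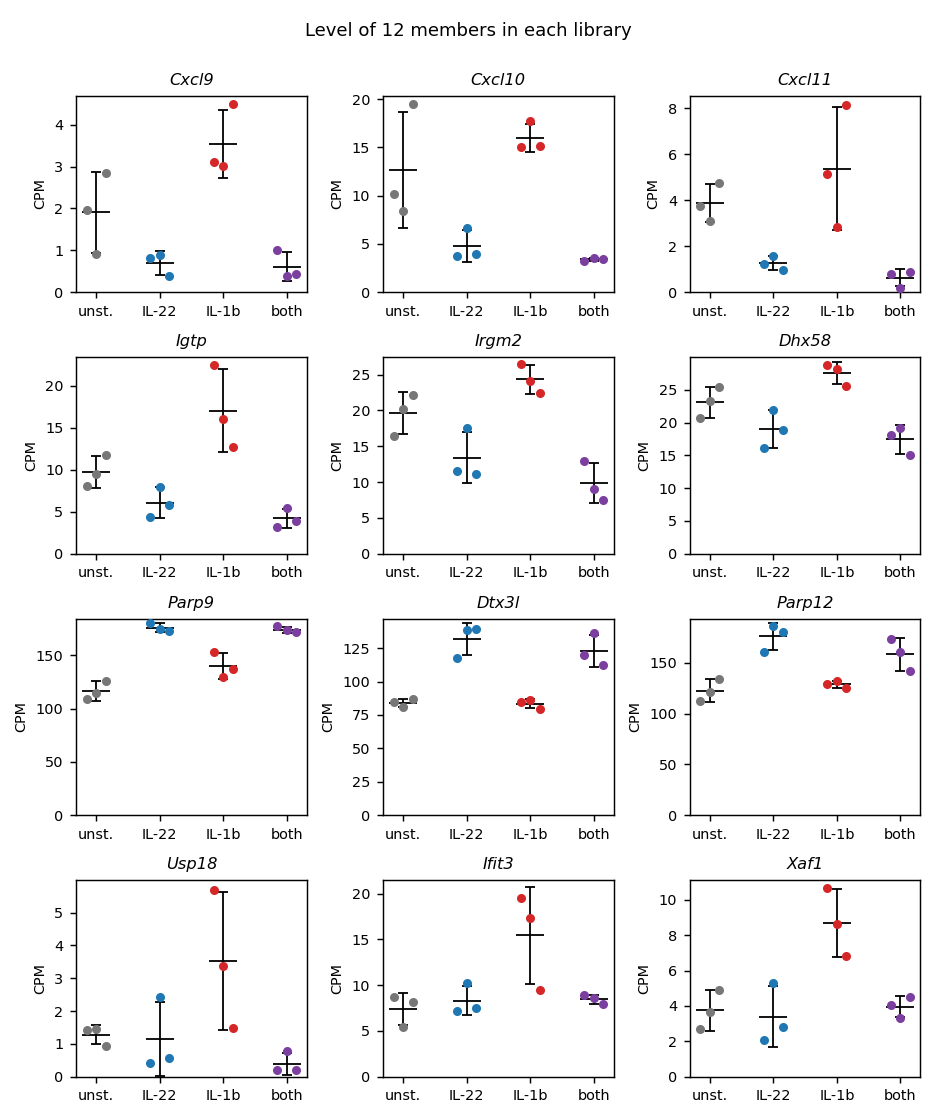
CPM of 12 members in each library (points), with the mean and SD of the 3 libraries of a group (lines), on linear axes that start at 0. Cxcl10 sat between 3.23 and 6.65 CPM in the 6 libraries with IL-22 and between 8.37 and 19.5 CPM in the 6 without it, while all 6 libraries with IL-22 were above all 6 without it for Parp9, Dtx3l and Parp12.

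With IL-1b alone, most members were somewhat higher than in unstimulated colonoids, but with the low-count filter no member passed the adjusted threshold. The number called was 0 of 42 by edgeR and 0 by DESeq2, where 0.0715% of all genes (10 of 13987) were called by edgeR. At an unadjusted p under 0.05 there were 16 members, all higher, which is 38.1% of those tested, beside 9.57% of all genes. DESeq2 put 14 members under that unadjusted p. The median log2 fold change was 0.29 over the members and -0.01 over all genes, and 33 of the 42 were positive. Without IL-1b replicate 1 the median was 0.22, 31 were positive, and 11 members (26.2%) had an unadjusted p under 0.05 beside 5.42% of all genes. Without IL-1b replicate 3 in its place, 1 member was called, Ifit3. The absence of calls depended on the low-count filter. With no filter beyond 1 count and all libraries, edgeR called 13 members, and the share of all genes is given near the end. They were Gbp2, Gbp3, Gbp6, Ifit1, Ifit2, Ifit3, Ifit3b, Igtp, Iigp1, Parp9, Tgtp1, Tgtp2 and Xaf1. The fit with no filter was not repeated without IL-1b replicate 1, which held most of the group's counts of Gbp3, Iigp1, Tgtp1 and Tgtp2. The leukocyte transcripts described above moved with this comparison, and their part in it was not tested.

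The members with the lowest unadjusted p with IL-1b were interferon-inducible GTPases, IFIT genes and Xaf1. Gbp6 was at 1.07, 0.727 and 0.379 CPM unstimulated and at 4.78, 2.63 and 2.66 CPM with IL-1b, so the groups were separate at very low counts. Its log2 fold change was 2.16 ± 0.47 (edgeR adjusted p = 0.159), or 1.83 without IL-1b replicate 1, and its route through the filter, given above, fixed the direction. With no filter beyond 1 count the value was 2.17 (edgeR adjusted p = 0.00885). Irgm1, a regulator of autophagy and of the other immunity-related GTPases, was at 49.4, 46.7 and 52.3 CPM unstimulated and at 63.0, 61.7 and 61.9 CPM with IL-1b. These libraries did not overlap and the IL-1b libraries lay close together, with a log2 fold change of 0.33 ± 0.08 (edgeR adjusted p = 0.178), also 0.33 without replicate 1. Ifit3 was at 8.73, 5.46 and 8.15 CPM unstimulated and at 19.5, 17.3 and 9.48 CPM with IL-1b, a log2 fold change of 1.04 ± 0.25 (edgeR adjusted p = 0.224), or 0.84 without replicate 1. Xaf1, an interferon-induced inhibitor of XIAP, was at 2.67, 3.64 and 4.93 CPM unstimulated and at 10.7, 8.65 and 6.82 CPM with IL-1b. The log2 fold change of Xaf1 was 1.21 ± 0.30 (edgeR adjusted p = 0.234), or 1.05 without replicate 1. Ifit3b (1.21 ± 0.31, or 1.06 without it) and Parp9 (0.26 ± 0.07, or 0.20 without it) completed the first 6.

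Some members with large IL-1b values drew them mostly from replicate 1. Ifit2 was at 24.6 CPM in that library, against 9.03 and 4.49 CPM in the other two and 2.00 to 4.45 CPM unstimulated. Its log2 fold change was 1.80 with the library and 0.90 without it. Gbp2 was at 11.4, 2.07 and 3.99 CPM with IL-1b and at 1.43, 0.909 and 1.90 CPM unstimulated, a log2 fold change of 2.03 with the library and 1.12 without it. The CXCR3 ligands were not called with IL-1b alone, at log2 fold changes of 0.90 for Cxcl9, 0.33 for Cxcl10 and 0.49 for Cxcl11, and of 0.99, 0.38 and 0.54 without replicate 1. Cxcl9 was at 3.12, 3.01 and 4.49 CPM in the IL-1b libraries, all above the highest unstimulated value of 2.84 CPM. Among the factors, the log2 fold changes were 0.08 for Irf1, -0.10 for Irf7 and 0.41 for Irf9 (0.02, -0.21 and 0.33 without replicate 1), none of them called.

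The members below the filter showed the weight of IL-1b replicate 1 most plainly. Iigp1, an immunity-related GTPase of the mouse, had 21, 1 and 1 counts in the IL-1b libraries, none in the unstimulated ones, 2, 3 and 1 with IL-22 and 0, 1 and 0 with both cytokines. Tgtp1 had 28, 5 and 8 counts with IL-1b against 0, 1 and 1 unstimulated, and its near-copy Tgtp2 had 30, 4 and 3 against 0, 0 and 1. Gbp3 had 22, 5 and 1 counts with IL-1b against 0, 1 and 1, and Ifi44 had 26, 4 and 4 against 2 in each unstimulated library. In all 5 of these genes replicate 1 held most of the counts of its group. Oas2 (0 to 10 counts) and Mx2 (2 to 5 counts) had few counts in every group. Mx2 and Cxcl11 are annotated as polymorphic pseudogenes in GENCODE M21, and whether their transcripts give a working protein in these colonoids was not tested.

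**Figure D3:**
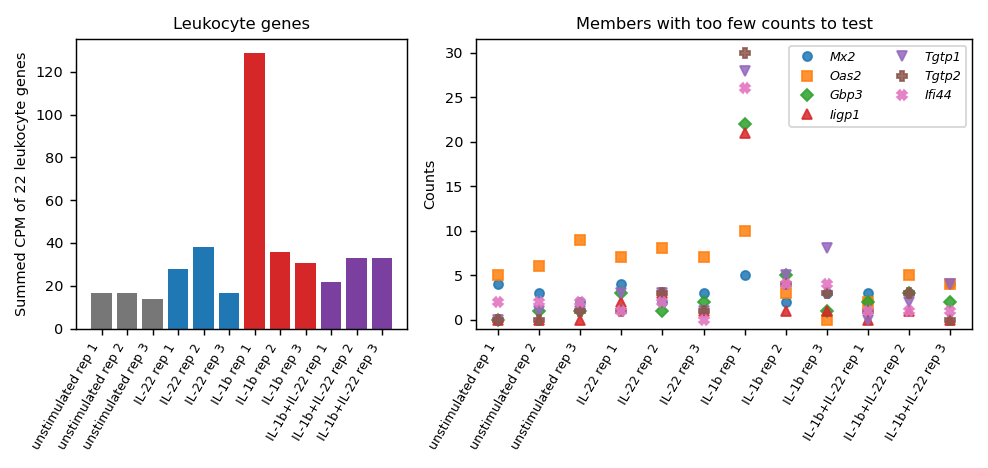
The left panel shows the summed CPM of 22 leukocyte markers in each of the 12 libraries (bars), and the right panel the deposited counts of the 7 members below the low-count filter in the same libraries (points). IL-1b replicate 1 had the highest bar, at 128.6 CPM, and held 21 to 30 counts of Iigp1, Tgtp1, Tgtp2, Gbp3 and Ifi44, whereas no other library held more than 8 counts of any of these 5 genes.

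Against unstimulated colonoids, both cytokines together lowered the CXCR3 ligands and the immunity-related GTPases Igtp and Irgm2, and raised Parp9, Dtx3l and Parp12. The calls numbered 12 of 42 members, 6 higher and 6 lower, which is 28.6% beside 27.0% of all genes (13.7% higher and 13.3% lower). Parp9 was at 177, 173 and 172 CPM and rose by 0.58 ± 0.07 on the log2 scale, Dtx3l by 0.55 ± 0.08 and Parp12 by 0.37 ± 0.08. Eif2ak2 (0.28 ± 0.08), Irf1 (0.25 ± 0.08) and Samd9l (0.19 ± 0.06) were also higher. Those 3 calls were lost without single libraries: Eif2ak2 without unstimulated replicate 1 or IL-1b+IL-22 replicate 1 (adjusted p = 0.0632 to 0.0682), Irf1 without unstimulated replicate 1 or 2 or IL-1b+IL-22 replicate 2 or 3 (0.0522 to 0.0948), and Samd9l without unstimulated replicate 1 or 2, IL-1b replicate 3, or IL-1b+IL-22 replicate 1 or 3 (0.0551 to 0.148). With a trend on count per exon base removed, Samd9l (log2 fold change 0.094, edgeR adjusted p = 0.222) and Irf1 (0.18, 0.0824) were not called. With total counts as the only scaling, Samd9l was not called either (0.15, edgeR adjusted p = 0.0997). Irf7 and Irf9 were not called.

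Cxcl10 was at 3.23, 3.53 and 3.43 CPM with both cytokines, every library below the lowest unstimulated value of 8.37 CPM, and its log2 fold change was -1.89 ± 0.32. Cxcl11 was at 0.807, 0.196 and 0.858 CPM, with a log2 fold change of -2.61 ± 0.52. Cxcl9 was at 1.01, 0.392 and 0.429 CPM, which overlapped the unstimulated range. Its log2 fold change of -1.60 ± 0.53 passed narrowly (edgeR adjusted p = 0.0375) and did not pass by DESeq2 (0.0933) or without unstimulated replicate 1 or 3 or IL-1b+IL-22 replicate 2 or 3 (0.0829 to 0.143). With no filter beyond 1 count, the values were -2.59 for Cxcl11 (edgeR adjusted p = 1.53e-05) and -1.58 for Cxcl9 (0.0312). Igtp was at 8.02, 9.46 and 11.8 CPM unstimulated and at 3.23, 5.49 and 3.86 CPM with both cytokines. Its libraries did not overlap, and the log2 fold change was -1.20 ± 0.30 (edgeR adjusted p = 0.0079). Irgm2 was at 16.4, 20.2 and 22.2 CPM unstimulated and at 12.9, 9.02 and 7.51 CPM with both, again without overlap, a log2 fold change of -0.99 ± 0.21 (edgeR adjusted p = 0.0033). Dhx58, which encodes the RNA sensor family member LGP2, was lower by -0.40 ± 0.14 on the log2 scale (edgeR adjusted p = 0.0448). That call was lost with DESeq2 (0.0923) and without unstimulated replicate 2 or 3, any IL-1b library, or IL-1b+IL-22 replicate 1 or 3 (0.0555 to 0.171). Only the direct test of a difference between IL-22 alone and both cytokines, given below, bears on whether IL-1b added to these values.

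**Figure D4:**
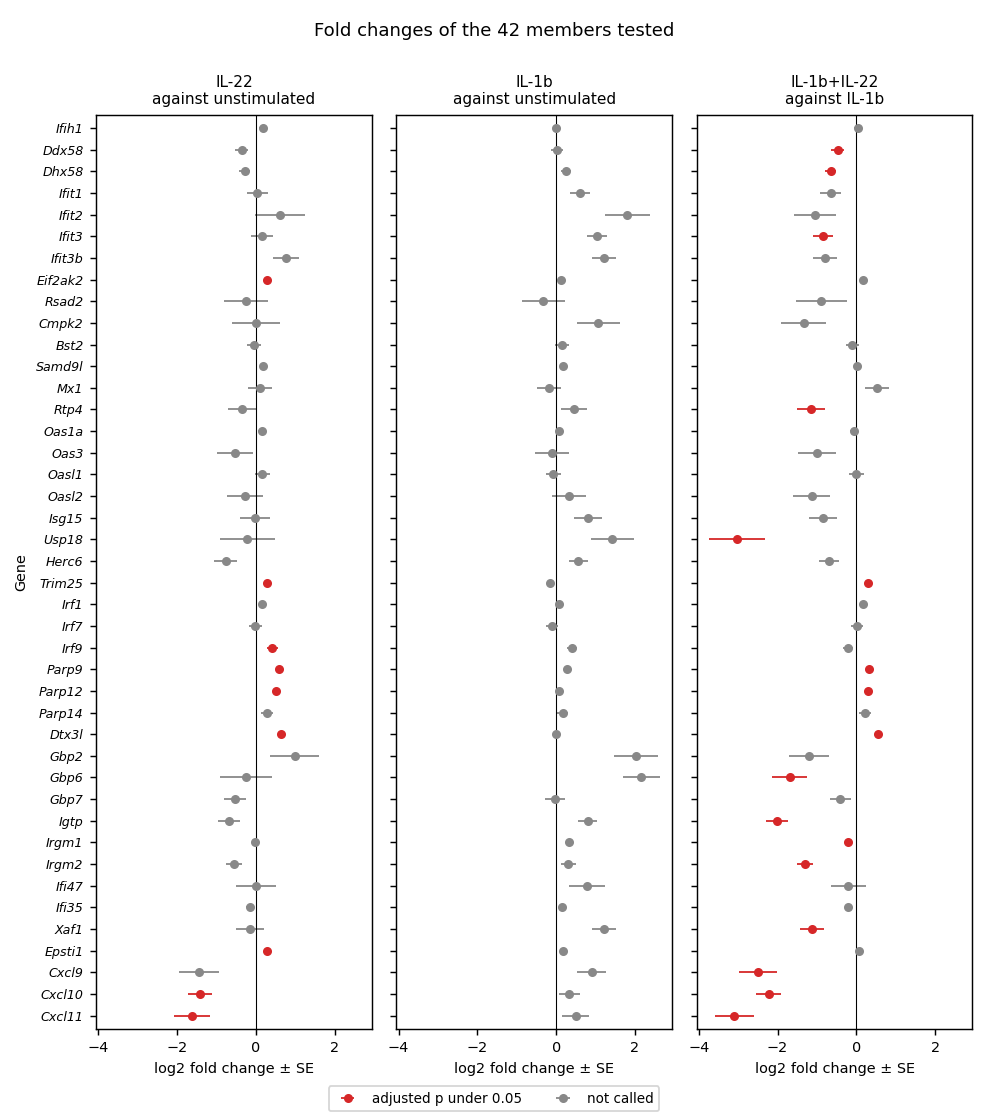
Log2 fold change of each of the 42 tested members with its SE (edgeR, 3 libraries per group) for IL-22 against unstimulated, IL-1b against unstimulated and IL-1b+IL-22 against IL-1b, with members past an adjusted p of 0.05 in red. The CXCR3 ligands lay left of 0 in both comparisons in which IL-22 was added, from -1.41 to -3.10, Parp9, Dtx3l and Parp12 lay right of 0 in them, from 0.30 to 0.65, and no member was past the threshold with IL-1b alone.

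Adding IL-22 to IL-1b lowered the CXCR3 ligands, Igtp, Irgm2, Dhx58 and Usp18 and raised Dtx3l, Parp9 and Parp12. Of 42 members, 17 were called against IL-1b alone (40.5%), 4 higher and 13 lower, beside 26.3% of all genes (13.3% higher and 13.0% lower). The median log2 fold change was -0.57 over the members and 0.00 over all genes. Much of the excess on the lower side depended on IL-1b replicate 1. Without it, 10 members were called, 3 higher and 7 lower, which is 23.8% beside 20.0% of all genes, with 9.95% of all genes higher and 10.0% lower. The median over members was then -0.25. The 10 were Dtx3l, Parp9 and Parp12 on the higher side and Cxcl9, Cxcl10, Cxcl11, Igtp, Irgm2, Dhx58 and Usp18 on the lower side. Without IL-1b replicate 3, 20 members were called (47.6%), 2 higher and 18 lower, beside 18.1% of all genes (9.02% higher and 9.09% lower). This comparison shares the IL-1b+IL-22 libraries with the previous one.

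The CXCR3 ligands and Usp18 were the members that fell furthest. Cxcl11 was at 5.15, 2.82 and 8.15 CPM with IL-1b against 0.807, 0.196 and 0.858 CPM with both cytokines, a log2 fold change of -3.10 ± 0.49. Cxcl10 was at 15.1, 17.7 and 15.1 CPM against 3.23, 3.53 and 3.43 CPM, with close libraries in both groups and a log2 fold change of -2.22 ± 0.32. Cxcl9 was at 3.12, 3.01 and 4.49 CPM against 1.01, 0.392 and 0.429 CPM, a log2 fold change of -2.50 ± 0.47. No library of one group reached into the other for any of the 3 ligands, and leaving out any 1 library ended none of these calls. Without IL-1b replicate 1 the values were -3.14 for Cxcl11, -2.27 for Cxcl10 and -2.59 for Cxcl9. With no filter beyond 1 count they were -3.09 for Cxcl11 and -2.49 for Cxcl9, both called (edgeR adjusted p = 1.3e-07 and 8.14e-05). The Cxcl9 and Cxcl11 values with IL-22 present rest on few counts, the lowest libraries having 2 and 1 counts.

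Of the immunity-related GTPases, Igtp was at 22.4, 16 and 12.6 CPM with IL-1b against 3.23, 5.49 and 3.86 CPM with both, a log2 fold change of -2.01 ± 0.28, or -1.76 without IL-1b replicate 1. Irgm2 was at 26.5, 24.1 and 22.5 CPM against 12.9, 9.02 and 7.51 CPM, a log2 fold change of -1.30 ± 0.21, or -1.24 without that library. These 2 neighbouring genes thus kept their calls and most of their size. Irgm1 fell by only 0.22 on the log2 scale, and leaving out any library of either group ended that call (adjusted p = 0.055 to 0.152). DESeq2 did not call it either (0.131). Among the guanylate-binding proteins, Gbp6 had a log2 fold change of -1.69 ± 0.45, which was -1.36 and no longer called without IL-1b replicate 1 (edgeR adjusted p = 0.0637). As it passed the filter through the IL-1b libraries alone, this direction was built in too. With no filter beyond 1 count the value was also -1.69 (edgeR adjusted p = 0.00638).

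Usp18 encodes the protease that removes ISG15 and restrains type I interferon signalling. It was at 5.70, 3.39 and 1.5 CPM with IL-1b against 0.202, 0.784 and 0.215 CPM with both cytokines. The groups did not overlap, but IL-1b replicate 1 was the highest and the counts were few. The log2 fold change was -3.03 ± 0.71 and -2.50 without that library (edgeR adjusted p = 0.0309). As Usp18 passed the filter mostly through IL-1b libraries, this direction was in part built in. With no filter beyond 1 count the value was -3.02 (edgeR adjusted p = 5.95e-05). With only the libraries of the groups compared in the fit, Usp18 was not among the members called. Dhx58 was at 28.9, 28.2 and 25.6 CPM against 18.2, 19.2 and 15 CPM, a log2 fold change of -0.65 ± 0.14, and it was called in every fit that left out 1 library. Ddx58, which encodes RIG-I, fell by 0.48 on the log2 scale, and its call was lost without IL-1b replicate 1 or 3 or IL-1b+IL-22 replicate 1 or 3 (adjusted p = 0.0657 to 0.166).

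Other effectors called in this comparison were Ifit3, Rtp4 and Xaf1, all of which lost their calls without IL-1b replicate 1. Ifit3 had a log2 fold change of -0.85 ± 0.25, or -0.65 without that library (edgeR adjusted p = 0.104). It was also lost without IL-1b replicate 2 or IL-1b+IL-22 replicate 2 or 3 (0.0537 to 0.0739). Rtp4, a receptor-transporter family protein with antiviral activity, had -1.15 ± 0.36, or -0.99 without replicate 1, and was likewise lost without IL-1b replicate 2 or IL-1b+IL-22 replicate 1 or 3 (0.0783 to 0.0985). Xaf1 had -1.13 ± 0.30, or -0.97 without replicate 1 (edgeR adjusted p = 0.0581), and was lost without IL-1b+IL-22 replicate 2 as well (0.0524). Members that were not called could move more still: Ifit2 went from -1.06 to -0.15, Gbp2 from -1.20 to -0.29 and Ifi47 from -0.20 to 0.30 when IL-1b replicate 1 was left out.

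On the higher side, Dtx3l was at 84.9, 86.2 and 79.7 CPM with IL-1b against 120, 136 and 113 CPM with both cytokines, a log2 fold change of 0.56 ± 0.08. Parp9 had 0.32 ± 0.07 and Parp12 0.30 ± 0.08, and Parp12 lost its call without IL-1b replicate 3 or IL-1b+IL-22 replicate 1 (adjusted p = 0.0672 to 0.0802). Trim25 had 0.30 ± 0.08, and its call was lost without IL-1b replicate 1 or 3 or IL-1b+IL-22 replicate 2 (0.0527 to 0.0815). Irf1, Irf7 and Irf9 were not called, with Irf9 at a log2 fold change of -0.21.

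**Figure D5:**
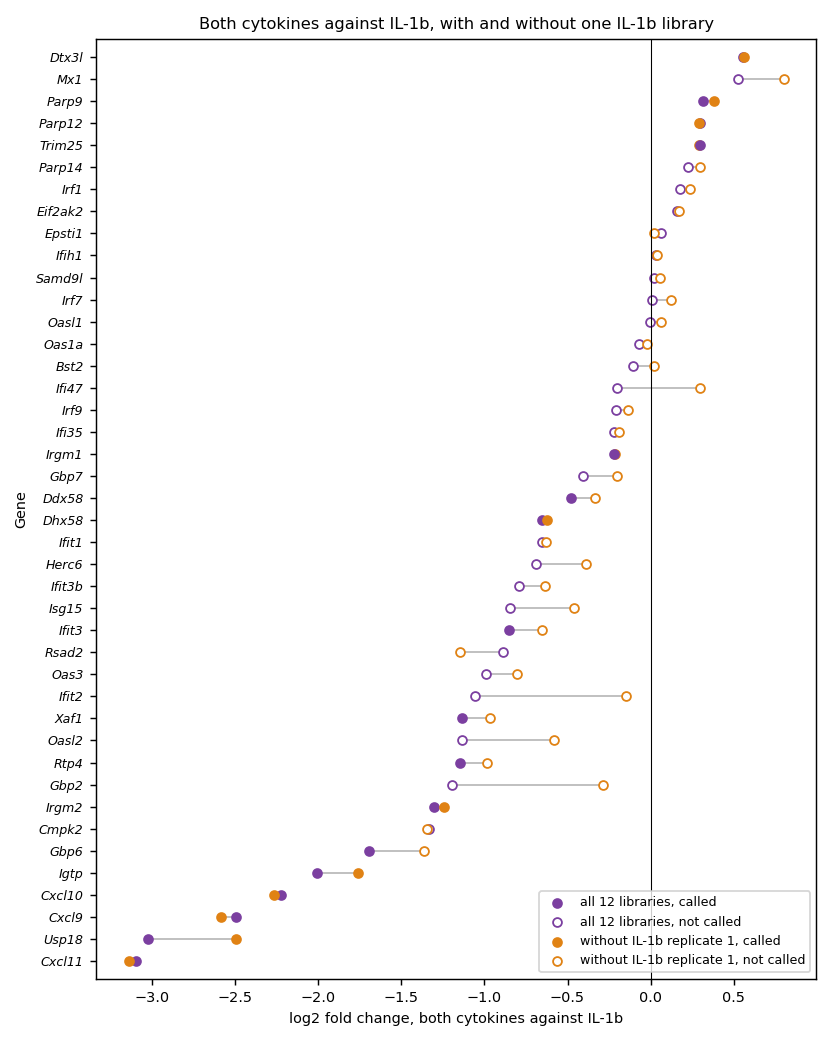
Log2 fold change of each tested member (rows) between IL-1b+IL-22 and IL-1b with all 12 libraries (purple) and without IL-1b replicate 1 (orange), with filled points for an adjusted p under 0.05 and a grey line joining both values. Irgm2 moved from -1.30 to -1.24 and Igtp from -2.01 to -1.76, while Ifit2 moved from -1.06 to -0.15 and Gbp2 from -1.20 to -0.29.

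Whether IL-1b changed members in the presence of IL-22 was asked directly. Against IL-22 alone, 0 of 42 members were called by edgeR in colonoids with both cytokines, where 0.0786% of all genes (11) were called. DESeq2 called 0 members too. At an unadjusted p under 0.05 edgeR had 1 member (2.38%), beside 10.3% of all genes, and DESeq2 had 0. That member was Herc6, an E3 ligase that attaches ISG15 in the mouse, at a log2 fold change of 0.64 (edgeR adjusted p = 0.484), and the next by p were Irgm2, Trim25, Parp12, Ifih1 and Irf9, at -0.44, -0.16, -0.15, -0.14 and -0.22. The median log2 fold change of the members was -0.09. The log2 fold changes of the ligands were -0.16 for Cxcl9, -0.47 for Cxcl10 and -0.98 for Cxcl11, none called.

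The interaction term, which asks whether the IL-1b difference depends on IL-22, was called for 0 of 42 members and for 0 of 13987 genes by edgeR. At an unadjusted p under 0.05 there were 8 members (19.0%), all negative, beside 5.04% of all genes, and DESeq2 called 0 members with 9 under that p. The lowest p were those of Ifit3b at a log2 value of -1.56 (edgeR adjusted p = 0.924), Irf9 at -0.63, Igtp at -1.32, Parp9 at -0.28, Gbp2 at -2.18 and Ifit3 at -1.01. Without IL-1b replicate 1 these values were -1.41, -0.56, -1.08, -0.22, -1.27 and -0.81 in the same order, and again no member was called by edgeR, with 8 at an unadjusted p under 0.05. With all libraries, IL-22 had more member calls on top of IL-1b (17) than alone (9). Without IL-1b replicate 1 the numbers were 10 and 10. The interaction term, which tests the difference gene by gene, passed for no member. Averaged over colonoids with and without IL-22, IL-1b gave 0 of 42 member calls by edgeR, beside 0.593% of all genes (83), and 0 by DESeq2. By both tools 9 members had an unadjusted p under 0.05 (21.4%), beside 14.8% of all genes by edgeR. Irgm1 came nearest, at a log2 value of 0.23 (edgeR adjusted p = 0.086), followed by Gbp6 at 1.43 (0.140), and without IL-1b replicate 1 these were 0.23 and 1.27.

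The rest of the interferon pathway was read from 4 lists of non-members. Of 10 interferon genes none had enough counts for a test: Ifnb1, Ifng, Ifnl3 and 4 interferon alpha genes had no count in any of the 12 libraries, and Ifnl2 had 1 in all. A count of 0 limits a transcript to fewer than about 3 counts per library and does not show that it was absent. The signalling gene Stat2 was not called in any comparison. It was at 74.5 ± 3.43 CPM unstimulated and 88.6 ± 9.66 CPM in the IL-22 group, and IL-1b gave 71.4 ± 3.40 CPM and both cytokines 76.3 ± 13.9 CPM (SD, n = 3). With IL-1b alone none of the 43 genes tested on these lists was called by edgeR, with 5 at an unadjusted p under 0.05, and DESeq2 called 0 with 4 under that p.

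Of the 6 receptor genes tested, 1 was called with IL-22 (16.7%, beside 22.5% of all genes) and 2 with both cytokines against unstimulated (33.3%, beside 27.0%), all higher. Ifngr1, the ligand-binding chain of the interferon gamma receptor, was at 226, 231 and 247 CPM unstimulated, at 285, 312 and 260 CPM with IL-22 and at 281, 272 and 282 CPM with both. Of the 15 kinase, STAT, sensor and feedback genes tested, 3 were higher and 1 lower with IL-22 (26.7%, beside 22.5%), and 4 were higher and 1 lower with both cytokines against unstimulated (33.3%, beside 27.0%). Tmem173, which encodes the DNA-sensing adaptor STING, changed most. It was at 13.0, 9.64 and 18.6 CPM unstimulated and at 60.9, 54.5 and 36.0 CPM with IL-22, a log2 fold change of 1.87. The value was 1.86 with both cytokines against unstimulated and 1.83 against IL-1b, or 1.70 without IL-1b replicate 1. Socs1, a feedback inhibitor of JAK signalling, was at 6.41, 4.55 and 4.55 CPM unstimulated and at 9.69, 11 and 7.94 CPM with both. This was a log2 fold change of 0.88, a call that ended when unstimulated replicate 2, unstimulated replicate 3 or IL-1b+IL-22 replicate 2 was left out (edgeR adjusted p = 0.0534 to 0.0688).

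Among 22 other interferon-induced genes tested, 3 were higher and 2 lower with IL-22 (22.7%, beside 22.5% of all genes), 4 higher and 1 lower with both against unstimulated (22.7%, beside 27.0%), and 3 higher and 4 lower with both against IL-1b (31.8%, beside 26.3%). The shares of these lists with IL-22 lay near that of genes in general. Zbp1, a sensor of left-handed nucleic acid, was at 2.14, 2.91 and 5.12 CPM unstimulated and at 16.3, 13.7 and 14.7 CPM with IL-22. The log2 fold change of Zbp1 was 2.14 with IL-22 and 2.63 with both cytokines, and leaving out any 1 library ended neither call. Ddx60, a helicase linked to RNA sensing, was at 57.5, 33.1 and 18.3 CPM with IL-1b and at 10.1, 12.3 and 12.9 CPM with both cytokines, a log2 fold change of -1.62, or -1.12 without IL-1b replicate 1 (edgeR adjusted p = 0.0288). Pml, the organizer of PML nuclear bodies, was lower in all 3 comparisons that added IL-22, at -0.39, -0.57 and -0.40 on the log2 scale (the last -0.47 without IL-1b replicate 1). The first of these calls ended on leaving out unstimulated replicate 2, IL-22 replicate 1 or IL-22 replicate 2 (adjusted p = 0.0594 to 0.0865) and the third without IL-1b replicate 2 or IL-1b+IL-22 replicate 3 (0.0691 to 0.0696).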

How the data were processed

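RNA counts of 12 mouse colonoid libraries were analysed, 3 for each of 4 treatments. The authors deposited whole-number counts per gene symbol for each library. The libraries were made with a stranded polyA kit per the labels' protocols, and mm10 is the build named by the submitters' processing notes. Which aligner, counting tool and annotation were used is not given in the sources. Of the symbols, 11498 had no count in any library.

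From the counts, edgeR 4.0.16 in R 4.3.3 was used with TMM scaling, its low-count filter and the quasi-likelihood test. All 12 libraries entered 1 fit with a mean per group and 8 residual degrees of freedom. The 7 comparisons were each adjusted by Benjamini-Hochberg over 13987 genes and called at an adjusted p under 0.05. Each SE was obtained by dividing the size of the log2 fold change by the root of its F statistic. CPM uses TMM-scaled totals. DESeq2 1.42.0 was an alternative. Positions and exon lengths are from GENCODE M21 (GRCm38) and were found for all 49 members by symbol, and for 26762 symbols directly and 515 by synonym among all.

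The members, roles, pathway lists and marker lists were chosen with earlier results of these data known. Named members were up to 8 called per direction and comparison by size of fold change, the 6 lowest p where fewer than 4 were called, the CXCR3 ligands and 3 IRF genes throughout, members that were not tested, and up to 4 called genes per pathway list with Stat2. Some items of these lists are not reported here. Members named only for a shift without IL-1b replicate 1 (Ifit2, Gbp2, Ifi47), Parp14 and the baseline levels were chosen after their values were seen. The fit was also run on simulated counts with changes placed in the IL-1b group only, and no result given here rests on that run.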

Additional observations from a re-analysis of the deposited data

How the results depend on the processing

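The number of members called kept within 1.5 times of its value under most alternatives. With no filter beyond 1 count, edgeR called 13 members with IL-1b against unstimulated in place of 0 (26.5% of 49 members, beside 0.870% of 24371 genes), 28 with IL-1b+IL-22 against IL-1b in place of 17 (57.1%, beside 16.4%), 1 in the interaction (2.04%, beside 0.205%) and 3 for IL-1b averaged over IL-22 (6.12%, beside 2.03%), both in place of 0. These no-filter counts use all libraries and were not repeated without IL-1b replicate 1. Removing a trend on count per exon base left 11 calls against IL-1b (26.2%, beside 24.3% of all genes). The same setting left 7 calls with IL-22 in place of 9, losing Epsti1 and Trim25. With both cytokines against unstimulated it left 8 in place of 12, losing Cxcl9, Dhx58, Irf1 and Samd9l. Leaving out 1 library at a time gave 6 to 10 calls with IL-22, 0 to 1 with IL-1b, 8 to 13 with both cytokines and 10 to 20 with both against IL-1b, and 0 in the other 3 comparisons. With total counts as the only scaling, which moved the median log2 fold change of all genes by -0.06 with IL-22, calls split 4 higher and 3 lower with IL-22, 5 and 7 with both cytokines and 4 and 17 against IL-1b. Same-numbered libraries showed no clear shared deviation (correlations from -0.188 to 0.179, 2 libraries correlating best with their own number). This does not show that they were unpaired, and the labels do not say. The replicate block gave 8, 10 and 15 calls with IL-22, both cytokines, and both against IL-1b, and 0 in the other comparisons. Of the values of named genes, 2141 kept direction and side of the threshold, 120 lost the call, 12 gained it and 27 changed sign. Sign changes outside the left-out libraries were Irf7 with both against IL-1b on total counts (-0.049) and with IL-22 with no filter (0.0018), and Stat2 with both cytokines on total counts (-0.0035). With 1 library left out, Irf7 ranged from -0.16 to 0.14 with IL-22, -0.24 to 0.058 with IL-1b, -0.23 to 0.062 with both, -0.21 to 0.011 with both against IL-22, -0.12 to 0.12 with both against IL-1b and -0.13 to 0.16 in the interaction. Stat2 ranged from -0.092 to 0.16 with both and -0.037 to 0.22 with both against IL-1b, Irf1 from -0.057 to 0.088 in the interaction, Cxcl9 from -0.708 to 0.090 with both against IL-22, and Cxcl10 from -0.18 to 0.16 for IL-1b averaged over IL-22. None of these values was called, and the cause of the changes was not tested. Depth limits the low members: 39 of 49 had under 0.1 count per exon base. Some abundant genes varied less than counting error over the 12 libraries. Epcam had a variance of 0.610 times its mean at 0.656 counts per exon base, and Krt8 had 0.511 times its mean. Others spread more, such as Cdh1 with 2645 to 3015 counts at 0.630 counts per exon base. The highest member, Samd9l, stood at 0.309 counts per exon base.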

Other observations

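Within each group the tested members tended to be high or low in the same library. Over 42 members, unstimulated replicate 3 was the highest of its group for 31 (73.8%, beside 37.1% of all genes), IL-22 replicate 2 for 30 (71.4%, beside 33.1%), IL-1b replicate 1 for 29 (69.0%, beside 33.8%) and IL-1b+IL-22 replicate 2 for 26 (61.9%, beside 37.4%). The lowest library of its group was unstimulated replicate 2 for 24 members and IL-1b replicate 3 for 27. Rsad2, which encodes the antiviral enzyme viperin, spread most widely without any treatment, at 10.2, 1.64 and 6.26 CPM in the unstimulated libraries. Oasl2 was at 14.8, 8.91 and 26.7 CPM in the same libraries and at 34.4, 20.5 and 8.15 CPM with IL-1b. Isg15, the ubiquitin-like modifier, was at 4.81, 4.36 and 8.72 CPM unstimulated and at 15.4, 10.2 and 5.82 CPM with IL-1b. These 3 genes were chosen after their values were seen, none was called in any comparison with all libraries and the low-count filter, and the source of the spread was not tested. Isg15 and Oasl2 were called with both cytokines against IL-1b without IL-1b replicate 3 and with no filter beyond 1 count, and with both cytokines against unstimulated Rsad2 was called without unstimulated replicate 2 and, like Oasl2, with no filter.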
